A study of Mus musculus with 6 samples.

Results

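Chemokines are small secreted proteins that attract leukocytes, and stromal cells such as fibroblasts secrete many of them together with growth factors for myeloid cells. The transcripts of 8 such genes were followed in mouse embryonic stem cells (mESCs): the CC chemokines Ccl2, Ccl7 and Ccl8, the CXC chemokines Cxcl1, Cxcl5 and Cxcl12, and the cytokines Csf1 and Il6. They were taken by symbol from the 28584 genes of the deposited table, and all 8 have a row in it. The group was put together because Ccl2 and Ccl7 were near absent without cytokine and high with either cytokine, so the differences of these 8 genes from the cells without cytokine are given as a description and without a test. The cells came from a single mESC line, derived from a C57BL/6 and 129S6 blastocyst, which was kept for 5 passages on mitomycin C-inactivated embryonic fibroblast feeders in medium with serum and LIF before it was moved to the media compared here. RNA was taken at passage 10 in these media from 2 biological replicates of each of 3 groups, which share a basic medium of knockout DMEM with fetal bovine serum. LIF-ESCs received 1000 U/mL leukemia inhibitory factor (LIF), OSM-ESCs received 10 ng/mL oncostatin M (OSM) and no LIF, and -LIF-ESCs received neither. The study describes the -LIF-ESC colonies at these passages as differentiated, with large, flat cells and strongly lowered pluripotency proteins. In comparisons with this group, cytokine and cell state cannot be told apart. The sources used here do not say whether feeder cells were present in these media.

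LIF and OSM belong to the IL-6 family of cytokines, which signal through receptor complexes that share the chain encoded by Il6st and activate the transcription factor Stat3. Ccl2, Ccl7 and Ccl8 are monocyte chemoattractants, Cxcl1 and Cxcl5 attract neutrophils, Cxcl12 guides and retains cells that carry its receptor Cxcr4, and Csf1 is the growth factor of macrophages. Il6 encodes the cytokine for which the family is named. In fibroblasts and other stromal cells the inflammatory members of this group are textbook targets of the transcription factors NF-kB and C/EBP.

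Upstream sequences are shown first because they are a feature that the choice of the group did not use. Promoter sequences of Cxcl1, Il6, Csf1, Cxcl12 and Ccl8 were found by symbol in RefSeq (GRCm38.p6), 5 of the 8 genes, and those of Ccl2, Ccl7 and Cxcl5 are not used here. The 250 bases before each start were searched on both strands for short motifs chosen from general knowledge, in which N is any base. These were GGNNTTTCC, a shortened form of the NF-kB motif, then TTGNGCAA for C/EBP, TGANTCA for AP-1, TTCNNNGAA for STAT, TATAAA for the TATA box and GGGCGG for the GC box. Of the windows 4 are printed 5′ to 3′ on the strand of the gene, 3 with an NF-kB match and, for contrast, that of Cxcl12 without one, and capitals mark every match.
Cxcl1, chr5:90890995-90891244, plus strand: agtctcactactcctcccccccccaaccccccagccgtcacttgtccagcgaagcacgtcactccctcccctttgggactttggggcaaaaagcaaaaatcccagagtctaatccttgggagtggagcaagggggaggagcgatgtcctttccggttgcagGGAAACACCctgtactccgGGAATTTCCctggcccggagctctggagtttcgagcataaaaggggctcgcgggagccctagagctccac
Il6, chr5:30012864-30013113, plus strand: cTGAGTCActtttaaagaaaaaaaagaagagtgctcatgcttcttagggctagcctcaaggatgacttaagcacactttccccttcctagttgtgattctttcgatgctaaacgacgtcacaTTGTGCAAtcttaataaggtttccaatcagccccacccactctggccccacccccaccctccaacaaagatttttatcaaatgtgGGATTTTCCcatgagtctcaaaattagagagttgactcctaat
Csf1, chr3:107760470-107760719, minus strand: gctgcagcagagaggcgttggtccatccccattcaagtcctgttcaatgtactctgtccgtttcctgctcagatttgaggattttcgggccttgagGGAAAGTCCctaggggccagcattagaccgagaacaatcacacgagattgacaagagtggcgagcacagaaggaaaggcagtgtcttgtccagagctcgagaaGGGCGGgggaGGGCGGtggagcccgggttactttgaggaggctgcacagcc
Cxcl12, chr6:117168285-117168534, plus strand: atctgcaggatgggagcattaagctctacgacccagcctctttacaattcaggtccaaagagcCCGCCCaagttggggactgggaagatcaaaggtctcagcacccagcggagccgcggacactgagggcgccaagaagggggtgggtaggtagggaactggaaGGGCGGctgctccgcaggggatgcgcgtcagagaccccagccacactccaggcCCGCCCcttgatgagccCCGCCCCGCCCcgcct
In Cxcl1 the NF-kB letters stood at 89 to 81 bases before the start, on the minus strand, and again at 70 to 62 bases on the plus strand. In Il6 they stood at 43 to 35 bases before the start, with a C/EBP match at 128 to 121 bases and an AP-1 match at 249 to 243 bases. In Csf1 they stood at 154 to 146 bases on the minus strand, and GC boxes stood at 51 to 46 and 41 to 36 bases. Cxcl12 held 5 GC boxes and no other match, and 2 of its GC boxes, at 16 to 11 and 11 to 6 bases, share 1 base. The window of Ccl8, which is not printed, held a TATA box at 32 to 27 bases and no other match. Of 32851 windows of the same length, 4.93% held the NF-kB letters, 2.61% the C/EBP, 6.75% the AP-1, 7.02% the STAT, 12.37% the TATA box and 32.74% the GC box letters. The motifs were chosen after expression results of these genes were known. The NF-kB letters were first searched in a form 1 base longer and were shortened after its matches had been seen. The longer form was in 1.41% of the windows, and both forms had 4 matches in the members, in Cxcl1, Il6 and Csf1. The STAT letters were in none of the 5 windows, which says only that these letters are not in these bases. A match is a run of letters and not a measured binding site.

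Expression is given in TPM as deposited, the share of a gene among all transcripts after its reads are divided by its length, with every library scaled to the same total, so levels may be compared between genes. In what follows, values without cytokine, with LIF and with OSM are those of the -LIF-ESC, LIF-ESC and OSM-ESC libraries, replicate 1 before replicate 2. Reads recovered from the TPM values came to 20712939 to 28994418 per library. The 10 embryonic stem cell markers summed to 5502 to 5520 TPM in -LIF-ESCs, 7480 to 7531 TPM in LIF-ESCs and 6962 to 7007 TPM in OSM-ESCs, and the 6 ovary markers with a row to 5.66 to 11.02 TPM over all libraries. That second sum was taken because the extraction protocol in the labels speaks of ovaries, which no other label does. Tests used the 18556 genes that reached 1 TPM in 2 libraries or more, on the log2(TPM + 1) scale, which shrinks the changes of weakly expressed genes. On this scale the median gene lay 0.165 higher with LIF and 0.182 higher with OSM than without cytokine, and 0.012 and 0.013 higher once libraries had been rescaled by their median ratio, a shift against which the log2 differences below are to be read. Rescaling moved the genes called higher from 62.2% to 50.5% of all calls with LIF and from 64.3% to 51.9% with OSM. A read limit of 3 reads per library is used below for genes at 0.

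The 3 CC chemokines were at or near 0 without cytokine, and with cytokine Ccl2 and Ccl7 reached 159 to 233 TPM while Ccl8 stood at 0.651 to 2.26 TPM. Ccl2, the main monocyte attractant of the family, stood at 0.388 and 0.283 TPM without cytokine (5 and 3 reads), at 174 and 178 TPM with LIF (1862 and 1826 reads) and at 230 and 233 TPM with OSM (2647 and 3214 reads). Both libraries of each cytokine group lay far above both -LIF-ESC libraries, and the LIF-ESC and OSM-ESC libraries did not overlap. Per unit of depth the reads of Ccl2 were 517 times those of -LIF-ESCs with LIF (95% counting interval 262 to 1198) and 680 times with OSM (345 to 1575). Ccl7, its neighbour on chromosome 11, had 0 reads in both -LIF-ESC libraries, 167 and 159 TPM with LIF (1255 and 1152 reads) and 219 and 212 TPM with OSM (1770 and 2061 reads). Against the read limit Ccl7 was at least 445-fold higher with LIF, and with OSM at least 588-fold. Ccl8 was of another order, with 0 reads without cytokine, 1.46 and 0.651 TPM with LIF (7 and 3 reads) and 1.55 and 2.26 TPM with OSM (8 and 14 reads). With so few reads the increase is bounded only at 1.84-fold or more with LIF and 3.31-fold or more with OSM. Counting intervals and limits cover counting error only, and in bulk RNA fewer cells of a type and less RNA per cell cannot be told apart.

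**Figure D1:**
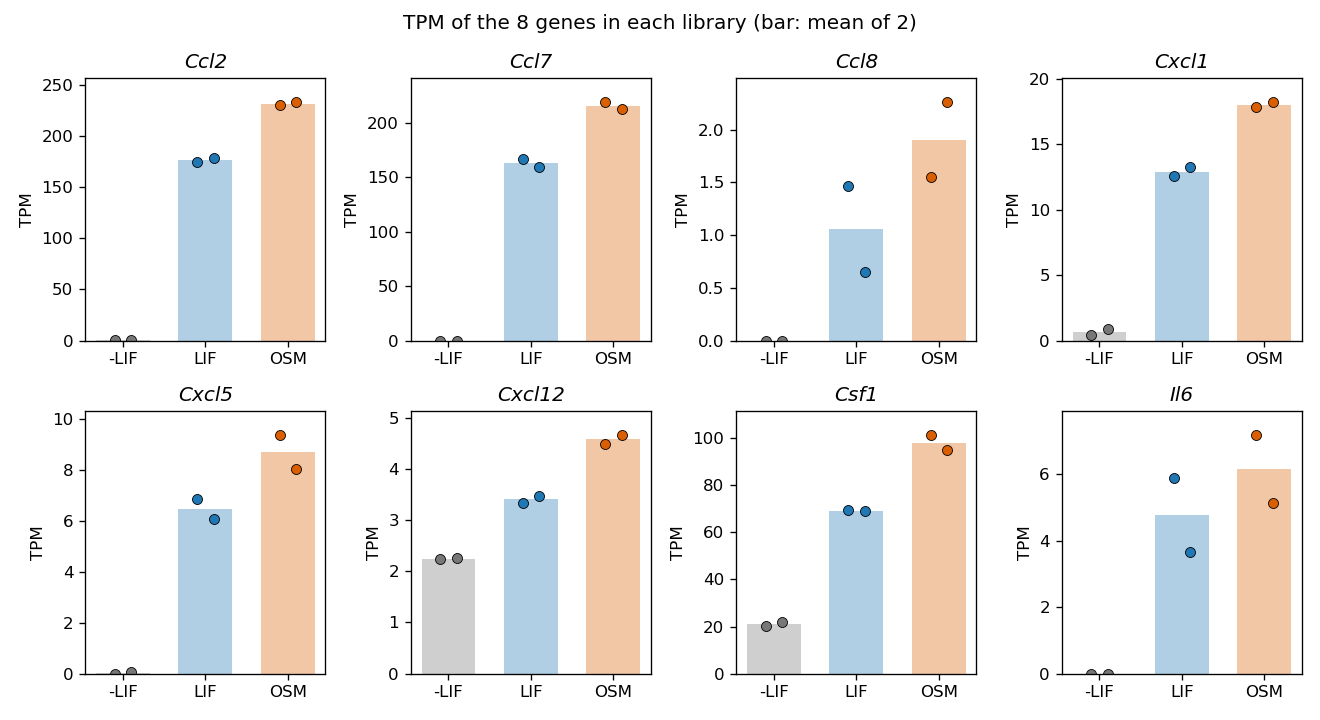
TPM of the 8 genes, with a panel for each gene and its own axis from 0, in -LIF-ESCs, LIF-ESCs and OSM-ESCs. Points are libraries and bars the mean of the 2. Ccl2 stands at 0.283 to 0.388, 174 to 178 and 230 to 233 TPM, and every gene is higher in both cytokine groups than in -LIF-ESCs.

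Among the CXC chemokines, the neutrophil attractants Cxcl1 and Cxcl5 were low without cytokine, whereas Cxcl12 was present in every group. Cxcl1 stood at 0.424 and 0.860 TPM without cytokine, 12.6 and 13.2 TPM with LIF and 17.8 and 18.2 TPM with OSM. Its mean TPM was 20.1 times that of -LIF-ESCs with LIF and 28.1 times with OSM. Cxcl5 had 0 and 1 read without cytokine, 6.87 and 6.07 TPM with LIF (120 and 102 reads) and 9.35 and 8.01 TPM with OSM (176 and 181 reads). That single read leaves the ratio of reads uncertain, at 249 for LIF-ESCs (44.2 to 9873) and 331 for OSM-ESCs (59.1 to 13119). Cxcl12 stood at 2.24 and 2.26 TPM without cytokine, 3.34 and 3.48 TPM with LIF and 4.50 and 4.67 TPM with OSM. It had the smallest log2 fold change of the 8 genes against -LIF-ESCs, 0.44 (SE 0.09) with LIF and 0.78 (SE 0.09) with OSM, and 0.32 and 0.64 after rescaling.

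Csf1, the macrophage growth factor, was the only 1 of the 8 genes with more than 3 TPM without cytokine, and Il6 was read only in the cytokine groups. Csf1 stood at 20.2 and 21.8 TPM without cytokine, 69.4 and 69.0 TPM with LIF and 101 and 95.01 TPM with OSM. Its mean TPM was 3.30 times and 4.68 times that of -LIF-ESCs. Il6 had 0 reads without cytokine, 5.88 and 3.65 TPM with LIF (134 and 80 reads) and 7.18 and 5.13 TPM with OSM (176 and 151 reads). The bound was 39.4-fold or more with LIF and 50.9-fold or more with OSM, and here the LIF-ESC and OSM-ESC libraries overlapped. In all 8 genes both libraries of LIF-ESCs, and both of OSM-ESCs, lay above both -LIF-ESC libraries, as they did in 50.9% and 51.5% of the genes tested. The choice of the group used these contrasts, and both share the -LIF-ESC libraries.

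The order of the levels was the same in both cytokine groups and another one without cytokine. With LIF and with OSM it ran from Ccl2 through Ccl7, Csf1, Cxcl1, Cxcl5, Il6 and Cxcl12 to Ccl8, and the 2 libraries of a gene did not overlap those of the next. Ccl2 was 1.04 to 1.12 times as high as Ccl7 in all 4 libraries. In -LIF-ESCs Csf1 led, followed by Cxcl12, Cxcl1 and Ccl2, while Cxcl5, Ccl7, Ccl8 and Il6 could not be ranked apart. The 8 genes summed to 23.2 to 25.3 TPM without cytokine, 433 to 441 TPM with LIF and 578 to 591 TPM with OSM.

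The comparison of OSM-ESCs with LIF-ESCs was not used to choose the group and was tested with limma across all genes, with the Benjamini-Hochberg adjustment over all of them. All 8 genes passed the filter of 1 TPM in 2 libraries, and all 8 had a higher mean in OSM-ESCs, by 1.29-fold for Il6 to 1.80-fold for Ccl8. Both ends of this range moved with single libraries: the log2 fold change of Il6 ran from 0.04 to 0.61 and that of Ccl8 from 0.23 to 0.80, without LIF-ESCs replicate 2 and without LIF-ESCs replicate 1, and without an OSM-ESC library Il6 stood at 0.11 and 0.53 and Ccl8 at 0.69 and 0.34. The log2 fold change of Ccl7 was 0.40 (SE 0.05, 95% interval 0.28 to 0.51) at an adjusted p of 0.0463. That of Csf1 was 0.50 (SE 0.06, 0.36 to 0.64) at an adjusted p of 0.0462. These were the 2 of 8 genes with an adjusted p under 0.05, as were 0.463% of all genes tested in this direction. Ccl2 came close with 0.39 (SE 0.05, 0.26 to 0.52) and an adjusted p of 0.0603. Cxcl1 stood at 0.45 (SE 0.14, 0.11 to 0.80, adjusted p = 0.229), Cxcl5 at 0.37 (SE 0.12, 0.07 to 0.67, adjusted p = 0.246) and Cxcl12 at 0.34 (SE 0.09, 0.12 to 0.56, adjusted p = 0.182). For Ccl8 the interval ran from -0.11 to 1.14 (log2 fold change 0.52, SE 0.25, adjusted p = 0.407). For Il6 it ran from -0.27 to 0.92 (0.32, SE 0.24, adjusted p = 0.582), so neither a difference nor its absence was shown for Ccl8 and Il6.

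By other counts, 6 of the 8 genes had an unadjusted p under 0.05 in this direction (9.8% of all genes), and both OSM-ESC libraries lay above both LIF-ESC libraries in 7 of 8 genes, Il6 being the exception (26.3% of all genes). The full call, which also asks for a log2 fold change of 1 or more, was met by 0 of the 8 and by 0.0323% of all genes, and in the other direction by 0.0485%. The median log2 fold change of the 8 genes was 0.40, against 0.01 over all genes tested and 0.43 over the 29 fibroblast markers tested. Neither Ccl7 nor Csf1 kept an adjusted p under 0.05 whichever of the 6 libraries was left out, with values from 0.123 to 0.274 for Ccl7 and from 0.110 to 0.271 for Csf1, while their log2 fold changes ran from 0.37 to 0.43 and from 0.45 to 0.54. The count of 2 became 0 with a pseudocount of 0.1, with no filter, without a trend, in a fit of the 2 groups and with a replicate block, 3 with a filter of 5 TPM and 5 with limma's voom on the recovered reads. With 2 libraries a group the smallest two-sided p of an exact permutation test is 0.333, and the p-values given here come from the model.

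**Figure D2:**
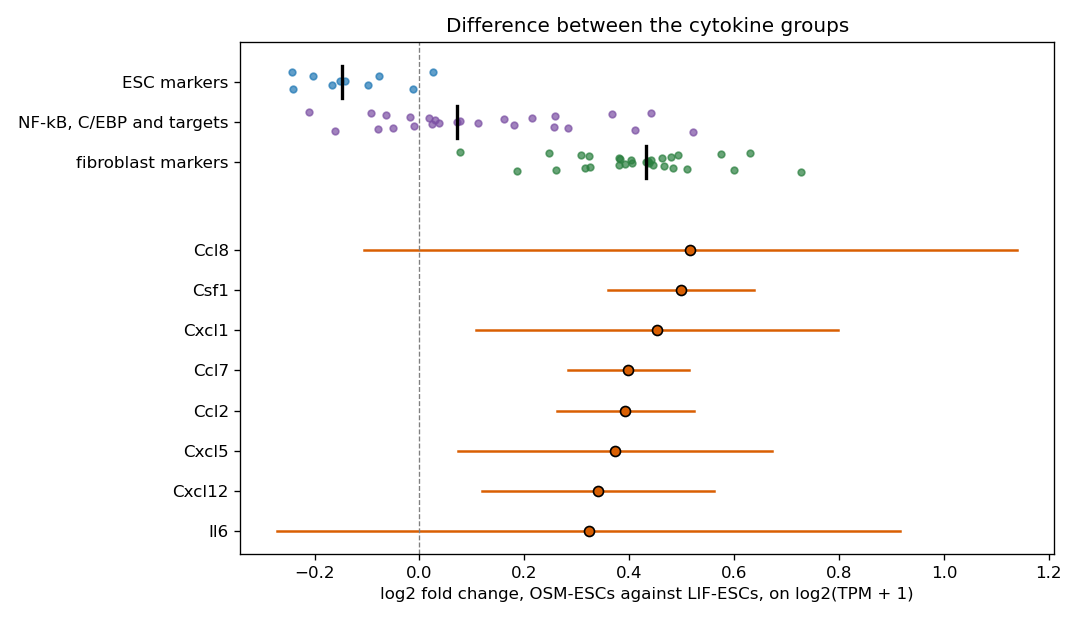
Log2 fold change of OSM-ESCs against LIF-ESCs on log2(TPM + 1). Orange points with lines are the 8 genes with their 95% intervals, and the upper rows show the tested genes of 3 lists, a point each, with a black bar at the median. The 8 genes lie between 0.32 and 0.52, near the fibroblast markers with a median of 0.43 and above the embryonic stem cell (ESC) markers with a median of -0.15.

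Ccl2, Ccl7 and Ccl8 lie in a row of chemokine genes on chromosome 11, and Cxcl1 and Cxcl5 in another on chromosome 5, and the neighbours within these rows differed widely in level. On chromosome 11 (GENCODE M21, GRCm38) the order is Ccl2 (82035571 to 82037453), Ccl7 (82045712 to 82047525), Ccl11, Ccl12 and Ccl8 (82115185 to 82116799). Ccl11, an eosinophil attractant, had 0 reads without cytokine, 6 and 16 with LIF and 8 and 9 with OSM. Ccl12 had 0 reads without cytokine, 11 and 1 with LIF and 3 and 2 with OSM. Thus the first 2 genes of the row reached more than 150 TPM with cytokine, and the next 3, which begin 22.3 kb to 79.6 kb from the start of Ccl2, stayed under 3 TPM. On chromosome 5 the order is Cxcl5 (90759360 to 90761624), Ppbp, Cxcl3, Cxcl1 (90891241 to 90893115) and Cxcl2. Between Cxcl5 and Cxcl1, Ppbp had 7 to 9 reads with LIF and 8 to 15 with OSM, and Cxcl3 had 1 to 4 and 4 to 5. Cxcl2, a neutrophil attractant next to Cxcl1, had 10 and 11 reads with LIF and 23 and 20 with OSM. None of these 3 genes had a read without cytokine. The other genes lie apart from these rows, Cxcl12 on chromosome 6 (117168535 to 117181367), Csf1 on chromosome 3 (107741048 to 107760469, minus strand) and Il6 on chromosome 5 (30013114 to 30019981). Of the 50-base words in the transcripts of the 8 genes, 13 of 1876 in Cxcl5 and 0 in the others occurred in a GENCODE M21 transcript of another gene, on either strand.

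Ccl2 and Ccl7, on which the choice of the group rested, dominated the chemokine ligand transcripts with cytokine and not without it. The 26 chemokine ligands with a row summed to 92.2 to 93.0 TPM without cytokine, 419 to 423 TPM with LIF and 547 to 561 TPM with OSM. Ccl2 and Ccl7 together were 0.307% to 0.417% of this sum without cytokine, 80.5% to 80.7% with LIF and 80.1% to 81.3% with OSM. The rise of the sum and this share rest mainly on these genes, which the choice of the group used, and are a description. The 20 ligands outside the group summed to 88.8 to 89.9 TPM without cytokine, 57.4 to 58.4 with LIF and 69.3 to 78.4 with OSM. In -LIF-ESCs the leading ligands were the interferon-inducible Cxcl10 at 33.0 ± 1.32 TPM (SD, n = 2), Cxcl16 at 26.9 ± 1.52, Cxcl11 at 13.0 ± 0.498 and Cx3cl1 at 8.50 ± 0.954. Besides the 8 genes, 9 of a list of 31 other ligands were tested, 11 with a row were too low, and the rest are not analysed here. Of the 9, 3 were called higher and 3 lower with LIF against -LIF-ESCs, and the same numbers with OSM, where 13.3% and 14.2% of all genes were called higher and 8.09% and 7.86% lower.

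Ccl5, a T cell attractant, was called higher, at 0.368 and 0.336 TPM without cytokine, 6.33 and 7.97 with LIF and 11.5 and 9.79 with OSM. Cxcl14 rose from 2.22 and 2.29 TPM to 6.48 and 7.40 with LIF and 7.26 and 8.21 with OSM. Ccl20 was at 0.746 and 0.151, 1.80 and 2.11, and 4.46 and 4.06 TPM in the 3 groups. Its log2 fold change with LIF was 1.06 (SE 0.22), but 0.76 without -LIF-ESCs replicate 2 and 0.98 without LIF-ESCs replicate 2, and also 0.98 after rescaling, all under the limit of 1. The called lower ligands were Cxcl11, Cxcl16 and Cx3cl1, which fell by 2.48 (SE 0.12), 1.81 (SE 0.10) and 1.71 (SE 0.15) on the log2 scale with LIF. In OSM-ESCs they fell by 2.05, 1.84 and 1.61. Cxcl10, named after its values were seen, was at 33.9 and 32.0, 23.9 and 25.01, and 35.3 and 30.6 TPM and was not called. In the contrast of OSM-ESCs with LIF-ESCs 0 of the 9 were called by limma, where 0.0323% of all genes were called higher and 0.0485% lower. At an unadjusted p under 0.05, 4 were higher and 0 lower, beside 9.8% and 5.5% of all genes. Voom called 1 of the 9 and 50 of all genes.

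**Figure D3:**
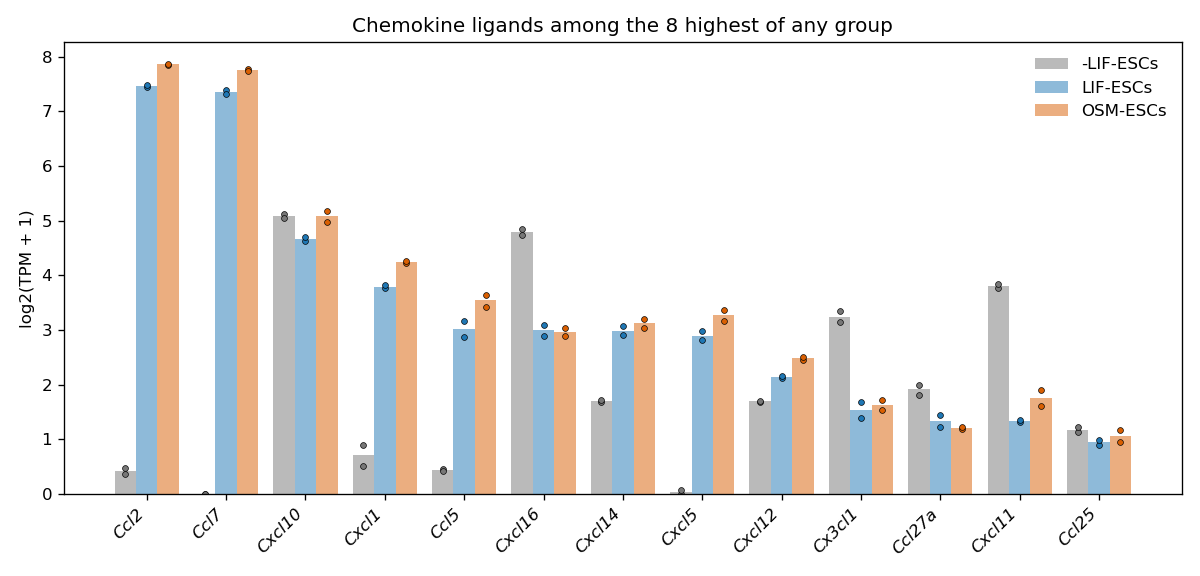
Levels of the 13 chemokine ligands that were among the 8 highest of any group, as log2(TPM + 1), ordered by their level in LIF-ESCs. Bars stand for the mean TPM of the 2 libraries of a group and points for libraries. Ccl2 and Ccl7 stand above all others in LIF-ESCs and OSM-ESCs, and Cxcl10 and Cxcl16 lead in -LIF-ESCs.

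Of the receptors of these ligands that were tested, only Il6st exceeded 10 TPM in any library. Of 15 receptor genes 11 had a row and 6 were tested, and 0 were called by limma or voom in any of the comparisons. With an unadjusted p under 0.05 there was only Il6st against -LIF-ESCs, and 0 genes in the contrast of the cytokines. Of all genes 43.8% and 44.5% were higher and 27.1% and 26.7% lower at that p with LIF and with OSM, and 5.5% were lower with OSM than with LIF. Il6st, which encodes the receptor chain shared by IL-6, LIF and OSM, stood at 16.1 and 16.6 TPM without cytokine, 27.5 and 26.6 with LIF and 28.7 and 28.2 with OSM. Its log2 fold change was 0.69 (SE 0.05, adjusted p = 0.000118) with LIF and 0.76 (SE 0.05, adjusted p = 8.3e-05) with OSM. Cxcr4, the receptor of Cxcl12, was at 1.41 to 2.54 TPM and its scavenger receptor Ackr3 at 1.42 to 2.95 TPM over the 6 libraries. Csf1r, the receptor of Csf1, was at 5.87 to 6.83 TPM. The -LIF-ESC and LIF-ESC libraries overlapped in all 3 of these genes. With OSM, Cxcr4 was at 1.86 and 1.73 TPM, below both -LIF-ESC libraries at 2.54 and 2.32 TPM (log2 fold change -0.29, adjusted p = 0.230). The receptors were named after their values were seen.

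Of 28 other cytokines of stromal and immune cells 17 were tested, and with LIF and with OSM alike 5 were called higher and 2 lower against -LIF-ESCs, where 13.3% and 14.2% of all genes were called higher and 8.09% and 7.86% lower. Of these, 2 belong to the IL-6 family: Lif rose from 7.65 and 7.07 TPM to 18.4 and 18.5 with LIF and 20.4 and 21.1 with OSM, and Il11 was at 0.746 and 1.34, 3.39 and 3.64, and 5.90 and 4.92 TPM. The call of Il11 with LIF (log2 fold change 1.16, SE 0.17) was lost without -LIF-ESCs replicate 1, at 0.95. Tnfrsf11b, a decoy receptor secreted by stromal cells, was called higher, from 0.188 and 0 TPM to 2.87 and 3.78 with LIF and 4.71 and 5.03 with OSM. Tslp, an epithelial and stromal cytokine, was listed at 0 without cytokine and stood at 2.35 and 2.84 TPM with LIF and 3.84 and 3.13 TPM with OSM. Within the TGF-beta genes the calls were opposite: Tgfb3 rose by 1.39 (SE 0.10) on the log2 scale with LIF and by 1.89 with OSM, and Tgfb2 fell by 3.39 (SE 0.18) and by 3.04. Tgfb2 went from 24.0 and 25.1 TPM to 1.23 and 1.65 with LIF and 2.65 and 1.64 with OSM. The other gene called lower was Tnf, with log2 fold changes of -1.11 with LIF and -1.12 with OSM. Tnf was named after its values were seen. In the contrast of OSM-ESCs with LIF-ESCs 0 of the 17 were called by limma or voom, and 7 were higher and 2 lower at an unadjusted p under 0.05, as were 9.8% and 5.5% of all genes.

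Of the NF-kB and C/EBP factors and NF-kB targets, 25 of 26 were tested. Against -LIF-ESCs, 11 were called higher with LIF and 9 with OSM, and 0 were called lower in either, beside 13.3% and 14.2% of all genes called higher. The 0 rests on the fold limit, since 3 genes with LIF and 1 with OSM had an adjusted p under 0.05 and lay lower. At an unadjusted p under 0.05, 17 were higher and 4 lower with LIF (43.8% and 27.1% of all genes), and 17 were higher and 1 lower with OSM (44.5% and 26.7%). Rescaling took Icam1 from 1.04 to 0.87 and Nfkbid from 1.09 to 0.97 with LIF, and Bcl3 from 1.096 to 0.92 with OSM, all under the limit of 1. These 3 genes were named after their values were seen. Voom called 11 genes of the list with LIF and 11 with OSM against -LIF-ESCs. Ccl5 and Cxcl10 also stand among the other ligands above, so the calls of Ccl5 count in both lists. Ptgs2, the inducible cyclooxygenase, had the largest log2 fold change of the list and rose from 1.58 and 1.67 TPM to 71.4 and 71.2 with LIF and 89.7 and 81.4 with OSM. Vcam1, an adhesion molecule for leukocytes, had 2 and 1 reads without cytokine and stood at 11.5 and 11.3 TPM with LIF and 14.7 and 13.5 TPM with OSM. Nfkbiz, a nuclear cofactor of NF-kB, rose by 2.47 (SE 0.09) and 2.65 on the log2 scale, and Tnfaip2, a target, by 2.30 (SE 0.11) and 2.67. Tnfaip3, Nfkbia and Birc3 of the same list were not called and lay lower. Their log2 fold changes were -0.63, -0.24 and -0.31 with LIF and -0.19, -0.33 and -0.06 with OSM. Tnfaip3, Nfkbia and Birc3 were named after their values were seen. Cebpb, a C/EBP factor, was at 14.1 and 17.6 TPM without cytokine, 89.6 and 62.4 with LIF and 59.1 and 75.4 with OSM. The subunits of NF-kB itself, Nfkb1, Nfkb2, Rela, Relb and Rel, were not called, with log2 fold changes of 0.98, -0.25, 0.46, 0.09 and -0.32 with LIF, and rescaling turned that of Relb to -0.07. These 5 were named after their values were seen. In the contrast of OSM-ESCs with LIF-ESCs 0 of the 25 were called by limma or voom, 7 were higher and 0 lower at an unadjusted p under 0.05 (9.8% and 5.5% of all genes), and the median log2 fold change was 0.07.

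**Figure D4:**
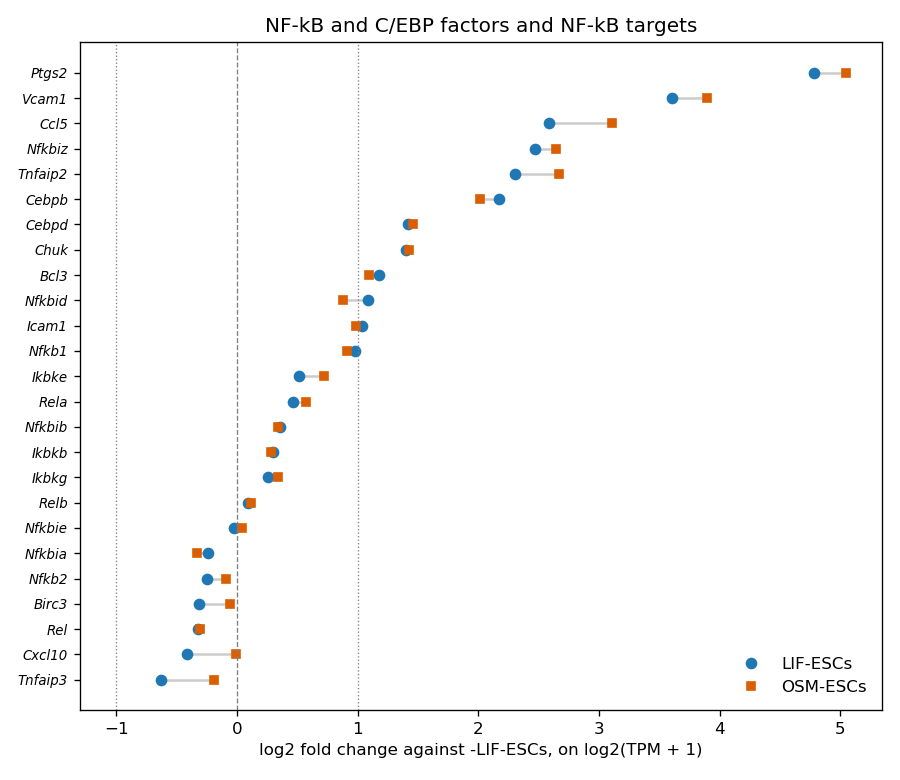
Log2 fold change against -LIF-ESCs, on log2(TPM + 1), of the 25 tested NF-kB and C/EBP factors and NF-kB targets in LIF-ESCs (circles) and OSM-ESCs (squares), which share the -LIF-ESC libraries. Dotted lines mark the limit of 1 in either direction. Ptgs2 stands at 4.78 and 5.04, and 11 and 9 genes met the call.

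The genes whose levels followed each of these genes most closely were sought, Il6 aside, by the Euclidean distance of centred log2(TPM + 1) values over the 6 libraries, which is a description that leans on the step between -LIF-ESCs and the rest. For Ccl2 and for Ccl7 the nearest genes were Lox, Mmp3, Grem1, Tnc and Mgp, in this order, at distances of 0.390 to 1.66 for Ccl2 and 0.732 to 2.01 for Ccl7. Lox cross-links collagen, Mmp3 degrades matrix, Grem1 is a secreted BMP antagonist, and Tnc and Mgp are matrix proteins. Lox, the nearest to both, stood at a mean of 0.0814 TPM without cytokine, 112 TPM with LIF and 152 TPM with OSM. For Cxcl1 the nearest were S100a4, Fosl1 and Ddr2, and for Cxcl5 they were the collagen gene Col1a2, Sh3kbp1 and Ecm1. Csf1 was followed by Syn3, Elk3 and Ccnd2 at distances of 0.0439 to 0.0877, and Cxcl12 by Col4a5, Ppic and Ppp1r18 at 0.0642 to 0.0936. For Ccl8 they were Tbx18, Mir718 and Ogn. Lox, Mmp3, Grem1 and Col1a2 are also in the list of fibroblast markers described next, so these descriptions are not separate.

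Fibroblast markers moved with the 8 genes. The 30 markers summed to 239 to 247 TPM without cytokine, 1197 to 1203 TPM with LIF and 1693 to 1720 TPM with OSM. Without cytokine 2 of them, Fap and Mmp3, were at 0 in both libraries, and 13 were under 1 TPM in both. Fap is the marker that was not tested, since it did not reach 1 TPM in 2 libraries of any group. Of the 29 tested, 25 were called higher and 0 lower with LIF and with OSM against -LIF-ESCs, where 13.3% and 14.2% of all genes were called higher. The 0 rests on the fold limit, since the matrix genes Col5a1 and Mmp2 had an adjusted p under 0.05 and lay lower in both cytokine groups. Col5a1, named after its values were seen like Mmp2, stood at 43.6 and 42.3 TPM without cytokine, 24.0 and 23.9 with LIF and 36.1 and 36.2 with OSM. The log2 fold changes of Mmp2 were -0.74 with LIF and -0.31 with OSM. In OSM-ESCs against LIF-ESCs all 29 were higher. Their unadjusted p was under 0.05 in 25 (9.8% of all genes) and their adjusted p in 9 (0.463% of all genes), and 0 met the full call by limma or voom. None of the 9 was left below 0.05 when any 1 library was left out.

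Read as a percentage of the marker sum, the genes of this group did not all move alike. Ccl2 was at 0.157% and 0.119% without cytokine, 14.5% and 14.9% with LIF and 13.4% and 13.8% with OSM. Ccl7 was at 13.9% and 13.3% with LIF and 12.7% and 12.5% with OSM. Both were thus lower with OSM on this scale, although their TPM was higher. This direction depends on the sum, to which the strongest markers add most. With OSM the mean TPM of Ccl2 and Ccl7 was 1.31 and 1.32 times that with LIF. Over the tested markers this ratio had a median of 1.37 and ran from 1.07 to 1.66. The share of all genes that were lower on this scale was not counted. Cxcl1 was at 1.04% and 1.11% with LIF and 1.04% and 1.08% with OSM, and Csf1 at 5.77% and 5.76% against 5.89% and 5.61%, so that the groups overlapped. In -LIF-ESCs Csf1 stood higher than in either, at 8.18% and 9.14%, as did Cxcl12 at 0.907% and 0.947% against 0.277% and 0.291% with LIF and 0.262% and 0.276% with OSM. The part of the fibroblast markers in the levels of the 8 genes was not tested.

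**Figure D5:**
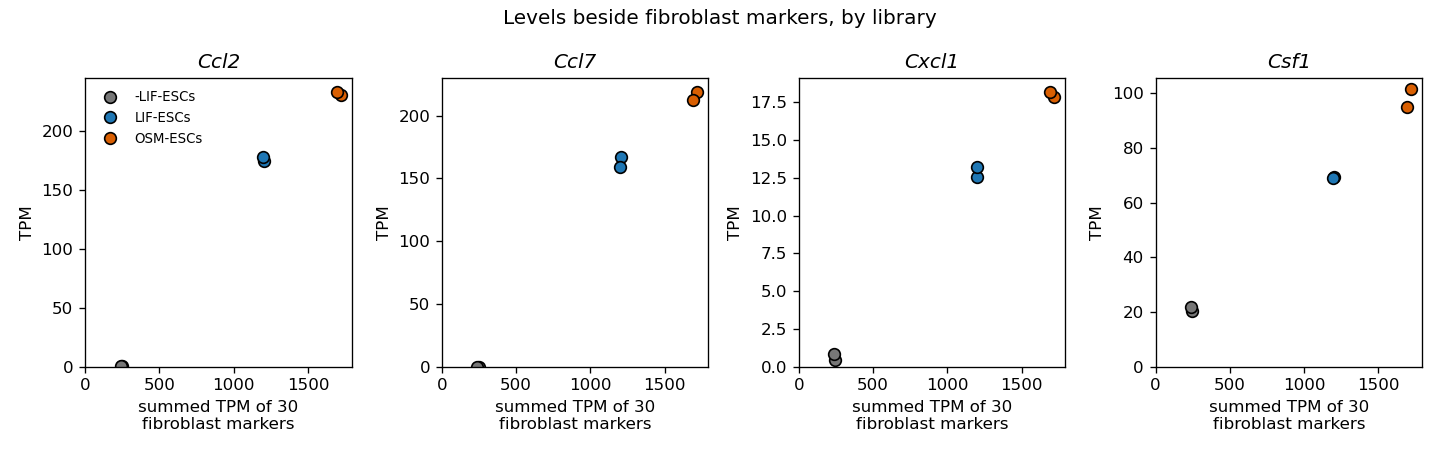
TPM of Ccl2, Ccl7, Cxcl1 and Csf1 in each library against the summed TPM of 30 fibroblast markers in the same library, both axes from 0. The libraries form 3 separate pairs, with marker sums of 239 and 247 without cytokine, 1197 and 1203 with LIF and 1693 and 1720 with OSM, and all 4 genes step up with the sum.

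Lists of other cell types gave mixed counts, to be read beside the 13.3% and 14.2% of all genes called higher and the 8.09% and 7.86% called lower with LIF and with OSM. Of 13 macrophage and blood cell markers with a row, which summed to 53.5 to 55.5, 124 to 127 and 118 to 124 TPM in the 3 groups, Adgre1, Fcgr1 and Tyrobp were at 0 in all -LIF-ESC and LIF-ESC libraries and had 0 to 8 reads in an OSM-ESC library. Of the 5 tested, Laptm5 was called higher, from 5.69 and 5.42 TPM to 98.8 and 98.6 with LIF and 96.3 and 91.1 with OSM, and Cd68 was called lower. The higher sum with cytokine rests on Laptm5, which rose by more TPM than the sum did. The 8 endothelial markers with a row summed to 35.3 to 36.4 TPM without cytokine, 43.6 to 43.7 with LIF and 35.7 to 37.6 with OSM, with 0 of 3 tested called higher and 1 called lower in each cytokine group. The 11 primitive endoderm markers summed to 116 to 117, 216 to 219 and 207 to 208 TPM, and 6 of 10 tested were called higher in each cytokine group. Of these, Pdgfra is also counted among the fibroblast markers. Of the 10 embryonic stem cell markers 4 were called higher and 0 lower in each cytokine group. The 0 rests on the fold limit, since Nanog had an adjusted p under 0.05 and lay lower in both cytokine groups. Its log2 fold change was -0.58 with LIF and -0.73 with OSM, and -0.75 and -0.92 after rescaling. The study, from its own RNA-seq results, reports Nanog as higher in both cytokine groups than in -LIF-ESCs, which is the opposite direction. The reason for this difference was not tested. Nanog was named after its values were seen. Of 3 ovary markers tested 0 were called, 1 being higher at an unadjusted p under 0.05 in each cytokine group. Rescaling took the stem cell marker Pou5f1 from 1.09 to 0.92 with LIF and from 1.12 to 0.93 with OSM, and the primitive endoderm marker Col4a2 from 1.01 to 0.84 and from 1.18 to 0.997, all under the limit of 1. Both were named after these values were seen.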

How the data were processed

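RNA-seq libraries of mESCs at passage 10, 2 per group, were analysed. Per the labels and methods, the authors purified poly-A RNA, prepared libraries with the NEBNext Ultra kit, trimmed reads with Trimmomatic, aligned them to mm10 with HISAT2, used featureCounts for the counts of each gene and, from these, deposited TPM values. The annotation, the strand setting and the treatment of reads with several matches are not given in the sources used here. The study's own count test was not repeated, since TPM is the unit at hand.

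The 18556 genes that reached 1 TPM in 2 or more libraries were fitted with lmFit and eBayes with a trend (limma 3.58.1, R 4.3.3), as log2(TPM + 1). All 3 groups were in 1 fit, with 3 degrees of freedom left for the spread (5.33 counting the prior), a median residual SD of 0.086 and Benjamini-Hochberg adjustment over all genes. A gene was called where its adjusted p was below 0.05, with an absolute log2 fold change that reaches 1. Reads were recovered from TPM and GENCODE M21 exon lengths for 28404 symbols (99.4%), of whose values 95.4% fell within 0.02 of a whole read. The read limit was 3 reads in each library. The fit was first checked on simulated data. For tables, intervals and plots, matplotlib 3.10.9, scipy 1.17.1, numpy 2.4.6 and pandas 2.3.3 were run in Python 3.11.15.

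The 8 genes and all lists were chosen with earlier results of these data known, the lists from general knowledge. Named were the 8 genes, of each list at most 6 called genes per comparison by size of change, chemokine neighbours on chromosomes 11 and 5, and the 5 nearest patterns for Ccl2 and Ccl7 and 3 for the others, without unnamed gene models. The nearest patterns of Il6 are not reported here. Exceptions are marked where they stand, and Cd68, Fap and the macrophage markers at 0 were also named after their values were seen. Alternatives were a pseudocount of 0.1, no filter or 5 TPM, no trend, a replicate block, a fit of 2 groups, median-ratio rescaling, voom on recovered reads and each library left out. P-values of the main fit rest on the spread between replicates, pooled over the 3 groups and moderated by that of other genes. How far the 2 replicates of a group were separate, beyond the word biological, is not stated.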

Additional observations from a re-analysis of the deposited data

Results flagged for a closer look

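Ccl7 and Csf1 differed between the cytokine groups, with log2 fold changes of 0.40 and 0.50 in OSM-ESCs against LIF-ESCs, higher in both OSM-ESC libraries than in both LIF-ESC libraries. Of the fibroblast markers, 9 had an adjusted p under 0.05 in the same comparison, all higher. These results rest on limma across all genes, and each adjusted p rose above 0.05 when any 1 library was left out, while the log2 fold changes stayed at 0.37 to 0.43 for Ccl7 and 0.45 to 0.54 for Csf1.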

How the results depend on the processing

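Of the 8 genes, 2 had an adjusted p under 0.05 in OSM-ESCs against LIF-ESCs, and this count was 0 with a pseudocount of 0.1, with no filter, without a trend, in a fit of the 2 groups and with a replicate block, 0 to 0 over the left-out replicates, and 5 with voom. A filter of 5 TPM gave 3, of 6 tested, and rescaling gave 2. All tested members were higher in OSM-ESCs in every one of these settings. With voom 1 other chemokine ligand was called in this comparison, against 0. Other cytokines called against -LIF-ESCs, 7 in each group, were 3 and 3 with the filter of 5 TPM, which tests fewer genes, and 11 and 12 with voom. Over all genes, 15 were called in OSM-ESCs against LIF-ESCs, 6 with the pseudocount of 0.1, 0 in the 2-group fit, 0 with the replicate block, 50 with voom and 0 to 1 over the left-out replicates. The cause was not tested. The 9 fibroblast markers with an adjusted p under 0.05 in OSM-ESCs against LIF-ESCs became 0 without a trend, in the fit of the 2 groups, with the block and with any library left out, and 25 with voom. The counts of calls of the NF-kB list, the receptors and the fibroblast markers, and of other ligands against -LIF-ESCs, stayed within 1.5 times their value. The other marker lists were not recomputed under these alternatives, apart from rescaling. Left-out replicates leave a lone sample that is assumed to vary like the other groups. Replicate numbers are shared by name only: same-numbered libraries had correlations of their deviations of -0.043, -0.023 and 0.027 between groups, and the block left 6 of the 8 genes with an unadjusted p under 0.05. Ccl8, with at most 14 reads, is limited by depth.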
